A study of Homo sapiens with 10 samples.

Results

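Interferon-stimulated genes (ISGs) are the genes that cells switch on when interferon binds to its receptors. The set described here holds 55 ISGs that were chosen by name, as known targets of interferon, and sorted into 9 groups by the role of their products. They were found by gene symbol in a table of 27945 symbols with FPKM values, which scale reads to the length of the transcript and the size of the library. Of the 55 genes, 53 reached the expression filter that left 13333 genes for the tests. *CMPK2* and *EPSTI1* did not reach it, with at most 3 reads and 1 read in any library, respectively. *MX1* was the 1 tested ISG below 1 cpm (FPKM multiplied by length in kilobases) in all controls, and it entered the tests through VEGFA-LNC deletion clones.

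Type I interferons bind a receptor built of IFNAR1 and IFNAR2, and the kinases JAK1 and TYK2 on its inner side then activate STAT proteins. A complex of STAT proteins and IRF9 enters the nucleus and binds the interferon-stimulated response element (ISRE) in the promoters of ISGs. Their products hold back viral entry, translation and replication, and some of them, such as RNA sensors and IRF7, sharpen the next response, while others, such as USP18, dampen it. Many ISGs are also kept at a low level in resting cells without added interferon.

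RNA-Seq was carried out on clonal lines of EA.hy926, an established cell line made by fusing human umbilical vein endothelial cells with the lung carcinoma line A549. The genotypes were a knock-out of the VEGFA lincRNA, which is transcribed antisense within *VEGFA* and is called *VEGFA-LNC* (3 clones), and a knock-out of the VEGFC lincRNA, which lies upstream of *VEGFC* and is called *VEGFC-LNC* (3 clones). The promoter of each lncRNA had been deleted with a pair of gRNAs and Cas9 protein, and the study describes its clones as homozygous. Each deletion had its own 2 control libraries, from cells that received gRNAs but no Cas9 and passed through the same clonal selection. The labels list no interferon and no other stimulus for any group. Each deletion library is 1 clone, and nothing states whether the 2 controls of a set are separate clones. The lncRNAs themselves were not analysed here, so that the genotypes rest on the labels.

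The libraries held 6743968 to 24197666 reads, recovered from the FPKM values, and the third *VEGFC-LNC* clone was the least deep. Of 12 endothelial markers, 9 were at 1 FPKM or more in every library, while *CLDN5* was listed at 0 throughout. Of 8 leukocyte markers, 6 stayed under 1 FPKM in every library, with *TYROBP* listed at 0, and all 6 fibroblast markers stayed under 1 FPKM. Between the clones of a deletion the ISGs varied more than other genes. The median SD of log2(FPKM + 0.1) was 0.834 for the ISGs and 0.287 for all tested genes in the *VEGFA-LNC* clones, and 0.520 and 0.249 in the *VEGFC-LNC* clones. Between the 2 controls of a set the median SD of the ISGs was only 0.0488 and 0.0527, respectively, so that the spread in the tests comes mainly from the clones.

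The promoters of ISGs are shown for the element that names the family. RefSeq promoters (GRCh38.p14, 250 bases before to 50 bases after the gene start) were matched for 46 of the 55 genes. The core of the ISRE was searched as GAAANNGAAA on both strands, and 29 of the 46 promoters (63.0%) held it, compared with 3.65% of 27305 promoters of the table. The shorter TTCNNNGAA core of the gamma-activated site was held by 11 of the 46 (23.9%) and by 7.88% of all promoters. The 2 motifs were searched independently, and their matches may overlap. A match describes letters and is not a measured binding site. The following windows of 30 bases show the match nearest to the gene start for 8 of the genes whose values are given below, with the ISRE core in capitals and each read 5′ to 3′ on the strand that carries it.
IFIT3 (chr10:89327865-89327894, minus strand, 122 bases before the start): gaggaaactgGAAAGTGAAActaatttaaa
IFITM3 (chr11:320876-320905, minus strand, 35 bases before the start): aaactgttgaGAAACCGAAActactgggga
ISG15 (chr1:1013380-1013409, plus strand, 107 bases before the start): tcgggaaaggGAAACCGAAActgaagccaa
DDX60 (chr4:168318786-168318815, minus strand, 53 bases before the start): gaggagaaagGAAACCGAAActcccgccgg
DDX60L (chr4:168480523-168480552, minus strand, 50 bases before the start): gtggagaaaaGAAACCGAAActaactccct
PARP14 (chr3:122680800-122680829, plus strand, 29 bases before the start): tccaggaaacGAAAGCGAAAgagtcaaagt
PLSCR1 (chr3:146544667-146544696, minus strand, 79 bases before the start): cgggaaccggGAAAAGGAAAccgtgttgtg
IFI6 (chr1:27672266-27672295, minus strand, 93 bases before the start): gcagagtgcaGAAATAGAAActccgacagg
IFITM3, ISG15, DDX60 and DDX60L share the same 10 letters in the core, and the distance to the gene start ranges from 29 bases in PARP14 to 122 bases in IFIT3.

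To see whether the ISGs were altered upon deletion of *VEGFA-LNC*, its 3 clones were compared with their own 2 controls in limma, on log2(FPKM + 0.1). *IFIT3* and *IFIT2*, which encode RNA-binding proteins that restrain translation of viral RNA, were upregulated, and the other 51 tested ISGs did not pass the test. Calls required a false-discovery rate (FDR) below 0.05 and an up- or downward fold change (FC) of 1.5 or more, which 2.75% of all tested genes reached in either direction. The log2 FC was above 0 for 52 of the 53 ISGs, against 44.2% of all tested genes, and *USP18* was the exception. The median log2 FC was 0.91 for the ISGs and −0.06 for all tested genes, and 26 of the 53 ISGs had a log2 FC of at least 1 (2.16% of all tested genes). At an unadjusted p under 0.05, 23 of the 53 ISGs would pass, all of them higher, and 2642 of all 13333 tested genes in either direction. The FDRs of the 51 ISGs that were not called ran from 0.0652 to 0.979.

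The clones behind this mean were unlike each other. The second *VEGFA-LNC* clone lay above both controls for 53 of 53 ISGs (36.8% of all tested genes did so), the third for 49 (40.0%) and the first for 25 (43.1%). The first clone lay below both controls for 23 ISGs, and the share of all tested genes that did so was not counted. On the log2 scale the median ISG of clones 1, 2 and 3 differed from the control mean by 0.04, 1.27 and 1.17, and for all tested genes it was between −0.11 and −0.03. In 51 of the 53 ISGs the first clone was the lowest of the 3, the exceptions being *OASL* and *SAMD9*. The second clone held the highest of all 10 libraries for 42 ISGs and the third clone for 9. For 24 ISGs all 3 clones were above both controls (15.3% of all tested genes), while for 20 ISGs the second and the third clones were above and the first clone was below both controls (11.6%).

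Since the first clone stood apart, the comparison without it is given beside the full one. Then 36 of the 53 ISGs were upregulated (5.51% of all tested genes were), with a median log2 FC of 1.19. These were 4 of 4 IFIT genes, 7 of 8 membrane and capsid restriction factors, 5 of 7 double-stranded RNA enzymes and nucleases, and 7 of 10 further inducible proteins, but 2 of 5 transcription factors and coactivators. The clone left out is the one with the lowest ISG levels, so that this count describes the other 2 clones and is not an independent test of the deletion. Without the second clone or without the third clone no ISG was called. Leaving out either *VEGFA-LNC* control or either *VEGFC-LNC* control also left none, as did the fit to the 5 libraries of the set alone. With the replicate number as a block neither was called, at an FDR of 0.0535 for *IFIT3* and 0.0665 for *IFIT2*. Without the second or the third *VEGFC-LNC* clone, which enter through the shared spread, *IFIT3* stayed called and *IFIT2* did not. Over the 19 alternatives run, the FDR of *IFIT3* ran from 9.23e-04 to 0.584 and that of *IFIT2* from 0.00209 to 0.663.

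The IFIT genes encode proteins with tetratricopeptide repeats that bind viral RNA, and they sit side by side on chromosome 10. *IFIT3* was at 10.9 and 11.2 FPKM in the *VEGFA-LNC* controls and at 32.4, 127 and 92.9 FPKM in clones 1, 2 and 3. *IFIT2* was at 7.68 FPKM in both controls and at 17.6, 59.8 and 43.9 FPKM in the clones. *IFIT1* was at 4.96 and 4.89 FPKM and went to 8.62, 55.9 and 47.8 FPKM. In all 3 genes even the first clone lay above both controls, and so it did for *IFIT5* at 3.89 FPKM against 3.07 and 2.97 FPKM. The log2 FCs were 2.70 for *IFIT3* (SE 0.50, FDR 0.0307 in limma), 2.21 for *IFIT2* (SE 0.46, FDR 0.0425), 2.51 for *IFIT1* (SE 0.82, FDR 0.143) and 1.54 for *IFIT5* (SE 0.53, FDR 0.160). The *VEGFC-LNC* controls had *IFIT3* at 9.66 and 10.5 FPKM, close to the other controls, and less *IFIT2*, at 3.83 and 3.70 FPKM. On hg19 *IFIT3* (NM_001031683) is listed on chromosome 10 from 91092236 to 91100725 and *IFIT2* (NM_001547) from 91061706. The 51 other tested genes within 5 Mb of the IFIT genes had a median log2 FC of 0.29, above the −0.06 of all genes, and 3 of them were called, with a largest log2 FC of 1.37. Clones 1, 2 and 3 had medians of 0.32, 0.16 and 0.21 for these neighbours. The part of this shifted segment in the IFIT values was not tested.

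Among the factors that act at membranes or on viral capsids, all 8 had a log2 FC above 0 and none was called, with a median of 1.56. *IFITM3*, which blocks the fusion of viruses with endosomes, had the highest mean level of the group. It was at 273 and 184 FPKM in the *VEGFA-LNC* controls and at 319, 834 and 739 FPKM in the clones (log2 FC 1.38, SE 0.56, FDR 0.218). The spread between its 2 controls was wide for this set. *MX2*, a GTPase that acts on the capsids of retroviruses and herpesviruses, had the largest log2 FC of the group, at 3.62 (SE 1.34, FDR 0.186). It was at 0.527 and 0.256 FPKM in the controls and 0.639, 20.0 and 13.0 FPKM in the clones, so that almost all of the difference lay in the second and the third clones. *BST2*, or tetherin, which holds budding virus at the cell surface, was at 1.93 and 2.28 FPKM in the controls, at 1.99 FPKM in the first clone and at 42.0 and 31.3 FPKM in the other clones. *RSAD2*, or viperin, was at 0.870 and 0.860 FPKM in the controls and 2.11, 7.78 and 2.91 FPKM in the clones. Its first clone was thus close to the third, with a log2 FC of 1.96 (SE 0.52, FDR 0.0842).

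The enzymes that act on double-stranded RNA or degrade RNA included the 2′-5′ oligoadenylate synthetases, which activate RNase L. All 7 tested members had a log2 FC above 0 and none was called, with a median of 1.24. *OAS2* had the largest difference, from 9.00 and 9.63 FPKM in the controls to 7.20, 85.4 and 61.3 FPKM in the clones (log2 FC 1.84, SE 1.02, FDR 0.363). *OASL*, which lacks synthetase activity and assists RIG-I, ran the other way between clones, at 22.0, 13.5 and 10.6 FPKM against 5.90 and 6.46 FPKM. It was the 1 tested ISG whose level was highest in the first clone, with a log2 FC of 1.24 (SE 0.31, FDR 0.0717). *ADAR*, the editing enzyme of double-stranded RNA and the member with the highest mean, was at 51.4 and 53.0 FPKM in the controls and 52.7, 77.2 and 79.4 FPKM in the clones. Its log2 FC was 0.39 (SE 0.28, FDR 0.478).

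ISG15 is a ubiquitin-like protein that UBE2L6 and HERC5 attach to other proteins and that USP18 removes. *ISG15* was at 34.4 and 40.0 FPKM in the controls and at 49.4, 114 and 104 FPKM in the clones (log2 FC 1.17, SE 0.48, FDR 0.220). *UBE2L6*, with the highest mean of this group, was at 59.4 and 63.0 FPKM and went to 69.7, 145 and 129 FPKM (log2 FC 0.84, SE 0.30, FDR 0.177). The remover did not follow them. *USP18*, which also blocks signaling at the receptor, was at 17.9 and 17.5 FPKM in the controls and 9.61, 18.2 and 17.1 FPKM in the clones (log2 FC −0.29, SE 0.30, FDR 0.645). Its second clone was less than 1 FPKM above the controls and its first clone was clearly below them.

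The RNA sensors and transcription factors stood near or below the controls in the first clone. *DDX60*, a helicase linked to RIG-I signaling, was at 6.96 and 7.04 FPKM in the controls and 8.31, 28.2 and 25.3 FPKM in the clones (log2 FC 1.36, SE 0.49, FDR 0.177). Its neighbour *DDX60L*, with the highest mean of the sensor group, moved little, from 12.2 and 12.7 FPKM to 10.1, 16.5 and 14.8 FPKM (log2 FC 0.12, SE 0.20, FDR 0.796). Of the 5 transcription factors and coactivators, 5 lay below both controls in the first clone, and 5 lay above both controls in each of the other 2 clones. They are among the 20 ISGs with this pattern, which 11.6% of all tested genes showed. *IRF9*, the DNA-binding part of the complex at the ISRE, was at 19.6 and 18.9 FPKM in the controls and 10.3, 38.8 and 39.6 FPKM in the clones. *IRF7*, which drives interferon genes, was at 16.6 and 17.3 FPKM and 10.4, 33.5 and 29.5 FPKM. *HELZ2*, a coactivator, was at 11.5 and 12.8 FPKM and 7.75, 30.1 and 26.3 FPKM. With clones on both sides of the controls their log2 FCs were 0.38 (SE 0.59, FDR 0.771), 0.36 (SE 0.50, FDR 0.747) and 0.59 (SE 0.51, FDR 0.574), the last being the largest of the group.

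Among the poly-ADP-ribose polymerases and their partner *DTX3L*, *PARP9* had the largest log2 FC, at 1.32 (SE 0.65, FDR 0.300), from 12.4 and 11.6 FPKM in the controls to 11.2, 54.9 and 43.7 FPKM. *PARP14* had the highest mean and was at 16.4 and 16.7 FPKM in the controls and 15.9, 38.8 and 36.8 FPKM in the clones. *PARP9* and *DTX3L* share a promoter region and are transcribed away from each other. Of the nuclear body and TRIM proteins, *SP100* was at 55.1 and 54.9 FPKM in the controls and 39.9, 70.2 and 69.6 FPKM in the clones. With 1 clone below and 2 clones above the controls its log2 FC was 0.08 (SE 0.26, FDR 0.902), and its sign turned under 4 of the alternatives. *PLSCR1*, a phospholipid scramblase that limits viral entry, was at 11.4 FPKM in both controls and 11.7, 41.5 and 30.2 FPKM in the clones (log2 FC 1.10, SE 0.43, FDR 0.204).

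Of the 10 further inducible proteins tested, all 10 had a log2 FC above 0 and none was called. *IFI6*, a mitochondrial and endoplasmic reticulum protein with antiviral activity, had the highest mean, at 35.2 and 33.4 FPKM in the controls and 38.8, 458 and 377 FPKM in the clones. The log2 FC was 2.46 (SE 1.11, FDR 0.262). *XAF1*, which promotes apoptosis, had the largest log2 FC, 3.08 (SE 1.39, FDR 0.262), with 0.364 and 0.548 FPKM in the controls and 0.503, 15.0 and 10.8 FPKM in the clones. In both genes the first clone was near the controls and far below the other clones. *IFI27* was at 25.6 and 22.0 FPKM in the controls, 5.65 FPKM in the first clone, the lowest of all 10 libraries, and 203 and 123 FPKM in the others.

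**Figure D1:**
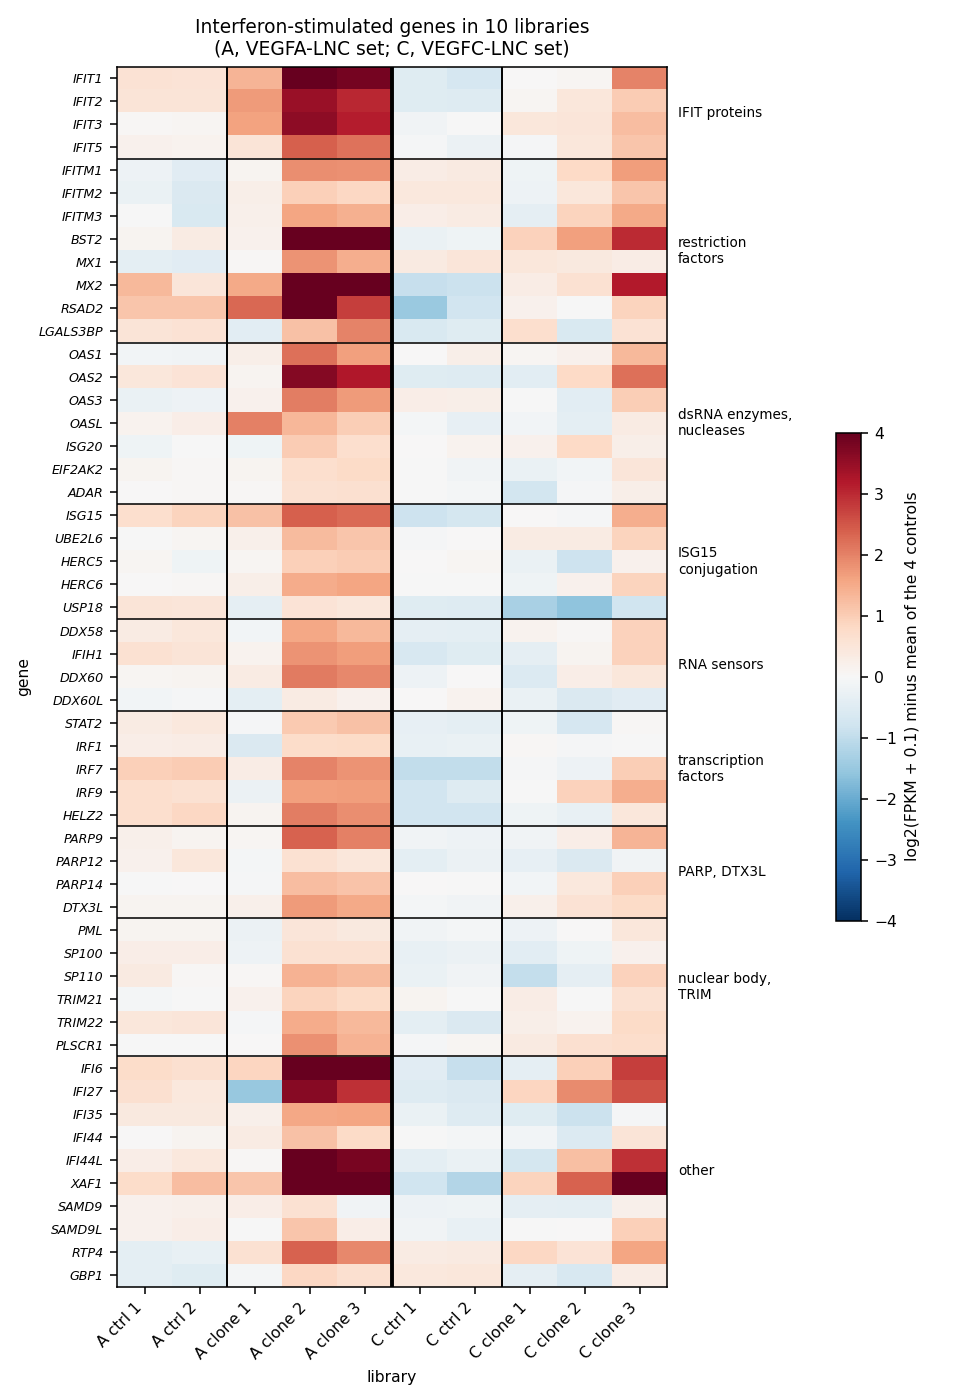
Log2(FPKM + 0.1) of the 53 tested ISGs in 10 libraries, minus the mean of the 4 controls, with genes ordered by role (A, *VEGFA-LNC* set; C, *VEGFC-LNC* set; colours end at −4 and 4). The second and the third *VEGFA-LNC* clones are the reddest columns, followed by the third *VEGFC-LNC* clone.

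Upon deletion of *VEGFC-LNC* no ISG was called in limma (0.473% of all tested genes were). At an unadjusted p under 0.05, 7 of the 53 ISGs would pass. Of all 13333 tested genes 2508 would, which is a larger share. The FDRs of the ISGs ran from 0.202 to 0.990. The log2 FC was above 0 for 44 of the 53 ISGs (41.0% of all tested genes), with a median of 0.45 against −0.09 for all tested genes. Without the first *VEGFA-LNC* clone, whose spread enters this fit, 8 ISGs were upregulated (3.08% of all tested genes were), among them *IRF7*, *IRF9*, *IFIT2*, *IFI27* and *BST2*. This count is likewise not an independent test of the deletion. The third clone lay above both controls for 49 ISGs (40.8% of all tested genes), the second for 35 (32.5%) and the first for 28 (37.3%). Their median differences from the control mean were 1.13, 0.35 and 0.11. The third clone was the highest of the 3 for 48 ISGs and was also the library with the fewest reads. For 25 ISGs all 3 clones lay above both controls (17.2% of all tested genes). Without the third clone the median log2 FC was 0.24.

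The transcription factors and the IFIT genes were among those in which the *VEGFC-LNC* clones stood together. All 3 clones were above both controls for 4 of 4 IFIT genes and 4 of 5 transcription factors and coactivators, but for 2 of 7 double-stranded RNA enzymes and nucleases. *IRF9* was at 7.20 and 8.50 FPKM in the controls and 12.2, 23.4 and 33.5 FPKM in the clones (log2 FC 1.43, SE 0.59, FDR 0.248). *IRF7* was at 4.16 and 4.17 FPKM and 8.12, 7.28 and 16.9 FPKM (log2 FC 1.24, SE 0.50, FDR 0.243). *ISG15* was at 12.1 and 13.2 FPKM and 21.9, 20.8 and 58.9 FPKM (log2 FC 1.24, SE 0.48, FDR 0.228). In these 3 genes no clone overlapped with the controls, and yet the FDRs stayed above 0.2. The SEs rest on a spread shared by all 4 groups. Without the first *VEGFA-LNC* clone the FDRs in limma were 0.0387 for *IRF9* and 0.0412 for *IRF7*, while *ISG15* was not called. The log2 FCs were the same in that fit, and the calls over all tested genes rose from 63 to 1158. That clone was singled out for its low ISG levels, so that these FDRs are not an independent test. *IFIT3* was at 14.4, 14.9 and 24.7 FPKM in the clones (log2 FC 0.78, SE 0.50, FDR 0.402) and *IFIT2* at 5.65, 7.41 and 10.9 FPKM (log2 FC 1.01, SE 0.46, FDR 0.276).

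Some ISGs were near the limit of detection in *VEGFC-LNC* controls. *XAF1* had 2 reads in each control and 32, 86 and 148 reads in the clones, with the most in the least deep library. The ratio of the pooled reads, scaled to library size, was 47.0, with an exact 95% interval of 18.2 to 174 that covers counting error only. *MX2* had 1 and 3 reads in the controls and 14, 16 and 44 reads in the clones (ratio 13.1, interval 4.90 to 49.3). *RSAD2* had 2 and 14 reads in the controls and 32, 22 and 17 reads in the clones (ratio 3.14, interval 1.81 to 5.78). In limma on log2(FPKM + 0.1), the FDRs of these 3 genes were 0.229, 0.379 and 0.202.

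Other ISGs had *VEGFC-LNC* clones below the controls. *USP18* was at 8.75 and 8.67 FPKM in the controls and 4.97, 4.04 and 7.04 FPKM in the clones (log2 FC −0.73, SE 0.30, FDR 0.245). *DDX60L* was at 13.4 and 14.6 FPKM and 10.8, 8.80 and 9.68 FPKM (log2 FC −0.52, SE 0.20, FDR 0.231). *GBP1*, a guanylate-binding protein, was at 7.28 and 7.55 FPKM and 4.26, 3.47 and 6.69 FPKM. These were the only 3 of the 53 tested ISGs with all clones below both controls. The share of all tested genes with this pattern was not counted. *DDX60L* and *DDX60* lie on the long arm of chromosome 4, where 18 other tested genes within 5 Mb had a median log2 FC of −0.82 upon *VEGFC-LNC* deletion. The part of that segment in their values was not tested. *IFITM3*, at 337 and 352 FPKM in the controls and 216, 517 and 791 FPKM in the clones, had clones on both sides (log2 FC 0.37, SE 0.56, FDR 0.729). *ADAR*, at 50.8 and 48.5 FPKM and 30.7, 49.1 and 60.0 FPKM, also had clones on both sides.

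**Figure D2:**
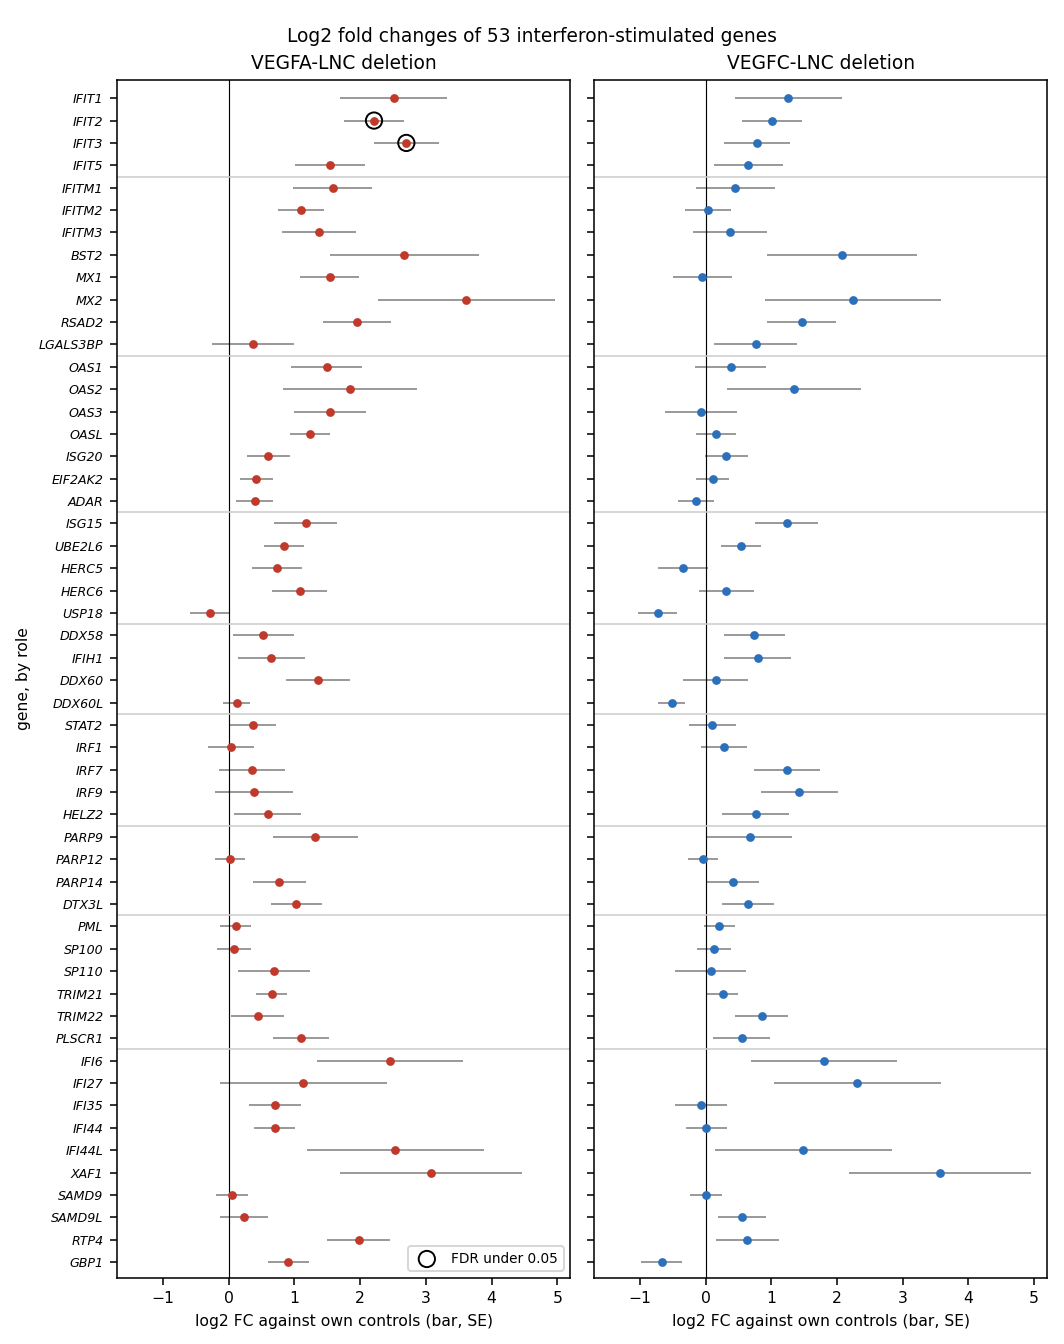
Log2 FC of each tested ISG against its own controls (points, with the SE as a bar) for both deletions, in order of role, with the ISGs called at an FDR under 0.05 ringed. *IFIT2* and *IFIT3* are ringed upon *VEGFA-LNC* deletion and no ISG is ringed upon *VEGFC-LNC* deletion.

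The effects of the deletions were then compared with each other, by a contrast of the 2 log2 FCs. No ISG was called (1.46% of all tested genes were), with FDRs from 0.122 for *GBP1* upward. An unadjusted p under 0.05 was reached by 4 of the 53 ISGs and by 2473 of all 13333 tested genes, a larger share. *IFIT3* had a difference of 1.92 (FDR 0.199) and *MX1* of 1.59 (FDR 0.233). *MX1* had only 4 to 37 reads per library and passed the filter through *VEGFA-LNC* clones, which favours a difference in this direction. *IRF9* and *IRF7* had differences of −1.05 (FDR 0.537) and −0.88 (FDR 0.541), which means larger log2 FCs in the *VEGFC-LNC* set. The labels do not say whether the clone numbers pair the libraries of the 2 deletions. With the replicate number as a block also 0 ISGs were called, while the calls over all genes went from 194 to 86.

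Between the 2 sets of controls, 2 of the 53 ISGs were called in limma, a smaller share than the 12.7% of all tested genes. *RSAD2* and *IRF7* were downregulated in *VEGFC-LNC* controls compared with *VEGFA-LNC* controls. *RSAD2* was at 0.0600 and 0.165 FPKM against 0.870 and 0.860 FPKM (log2 FC −2.23, SE 0.52, FDR 0.0373) and *IRF7* at 4.16 and 4.17 FPKM against 16.6 and 17.3 FPKM (log2 FC −2.00, SE 0.50, FDR 0.0461). The log2 FC was below 0 for 39 of the 53 ISGs (58.1% of all tested genes), with a median of −0.41 against −0.11. Both calls are lost with a pseudocount of 1 FPKM, with FDRs of 0.235 and 0.0528, and without any 1 of the 4 controls or the third *VEGFA-LNC* clone, and that of *IRF7* also without the first or the second *VEGFC-LNC* clone. The sets and their controls cannot be told apart, since each set has its own. Levels reached in *VEGFC-LNC* clones could thus lie within those of *VEGFA-LNC* controls. *IRF7* in the third *VEGFC-LNC* clone, at 16.9 FPKM, lay between the *VEGFA-LNC* controls. The median log2 level of the ISGs was 3.65 and 3.75 in the *VEGFA-LNC* controls, 3.32 and 3.22 in the *VEGFC-LNC* controls, and 3.45, 3.46 and 4.25 in the *VEGFC-LNC* clones.

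Interferon itself was hardly measured in any library. Of 22 interferon genes, none reached the filter, 14 had no read in any library and 19 had at most 3 reads. *IFNB1*, the interferon-beta gene, had 1 and 3 reads in the *VEGFA-LNC* controls, 0, 8 and 4 reads in the clones, and 0 reads in all 5 libraries of the *VEGFC-LNC* set. A count of 0 allows up to 3 reads. *IFNE*, with the highest mean of these genes, had 1 to 6 reads in every library. *IFNL1*, a type III interferon gene, had 0 and 3 reads in the *VEGFA-LNC* controls and 0, 2 and 5 reads in the clones. These counts are too low to compare the groups.

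Genes that act upstream of the ISGs were not called for either deletion. Of 6 receptor chains, 5 were tested and none was called for either deletion, with median log2 FCs of 0.23 and 0.25. *IFNGR2*, the receptor chain for interferon-gamma with the highest mean of this list, was at 12.7 and 14.6 FPKM in the *VEGFA-LNC* controls and 13.9, 16.2 and 18.3 FPKM in the clones. *IFNAR1* was at 13.4 and 14.3 FPKM in these controls and 11.0, 16.1 and 14.3 FPKM in the clones. Of 9 kinases and feedback regulators, 8 were tested and neither deletion gave a call. *JAK1*, the receptor kinase with the highest mean of this list, was at 141 and 148 FPKM in the *VEGFA-LNC* controls and 55.0, 171 and 160 FPKM in the clones (log2 FC −0.33, FDR 0.716), again with the first clone lowest. *TYK2*, the other receptor kinase named above, was at 17.0 FPKM in both *VEGFA-LNC* controls and lower in all 3 clones, at 9.65, 9.67 and 11.35 FPKM (log2 FC −0.73, SE 0.17, FDR 0.061). Upon *VEGFA-LNC* deletion 2 of these 8 genes had a log2 FC above 0. Of 15 genes that sense nucleic acids and induce interferon, 14 were tested, again with no call for either deletion. *TMEM173*, which encodes STING, had the highest mean of them and was at 75.3 and 75.2 FPKM in the controls and 37.3, 253 and 148 FPKM in the *VEGFA-LNC* clones (log2 FC 0.57, FDR 0.679). *TICAM1* was at 12.4 and 12.3 FPKM in these controls and 4.38, 6.24 and 8.32 FPKM in the clones (log2 FC −1.01, SE 0.24, FDR 0.061). The *VEGFC-LNC* controls had *TICAM1* at 5.89 and 6.10 FPKM. Upon *VEGFA-LNC* deletion 11 of these 14 genes had a log2 FC above 0.

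A further list of 39 interferon-inducible genes outside the set was looked at in the same fit. Of 37 tested, 1 was upregulated upon *VEGFA-LNC* deletion and none upon *VEGFC-LNC* deletion, with median log2 FCs of 0.46 and 0.09. That is a share near the 2.75% and 0.473% of all tested genes called in these comparisons. The upregulated gene was *NMI*, whose product binds STAT and MYC proteins, at 13.8 and 13.7 FPKM in the controls and 20.5, 32.4 and 26.2 FPKM in the clones (log2 FC 0.91, SE 0.18, FDR 0.0375). *VEGFC-LNC* controls had *NMI* at 27.7 and 24.6 FPKM, within the range of the *VEGFA-LNC* clones. *SHISA5*, with the highest mean of the list, was at 56.4 and 59.1 FPKM in the controls and 60.2, 127 and 107 FPKM in the *VEGFA-LNC* clones (log2 FC 0.70, SE 0.33, FDR 0.280), with the same order of clones as most ISGs.

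Of the cell types joined in EA.hy926, the endothelial markers moved with the ISGs across the *VEGFA-LNC* clones. The summed epithelial markers ran in the opposite order. Summed over 12 endothelial markers the level was 439 and 456 FPKM in the *VEGFA-LNC* controls, 323 FPKM in the first clone, 1120 FPKM in the second and 685 FPKM in the third. All 11 of these markers that reached 1 FPKM in a clone were lowest in the first clone and highest in the second. In the *VEGFC-LNC* set the sum was 638 and 625 FPKM in the controls and 572, 860 and 943 FPKM in the clones. The third clone, which had the highest ISG levels, had the highest sum, but the single markers were split. *PECAM1*, *CDH5*, *VWF*, *EGFL7*, *ERG* and *ROBO4* were highest in the third clone, *TEK*, *KDR*, *ESAM* and *MMRN2* in the second and *TIE1* in the first. Between the control sets the endothelial sum was higher in the *VEGFC-LNC* controls, whereas the median ISG level was lower there. The sums of 6 epithelial markers, which rest on *KRT7*, *KRT8* and *KRT18*, ran from 1080 to 1090 FPKM in the *VEGFA-LNC* controls and from 487 to 1310 FPKM in the clones, with the second clone lowest. They ran from 898 to 911 FPKM in the *VEGFC-LNC* controls and from 439 to 866 FPKM in the clones. The leukocyte markers, summing to between 17.6 and 54.1 FPKM, rest almost wholly on *CD68*, and the fibroblast markers summed to 0.541 FPKM at most. In bulk RNA a difference in the share of cells of one kind and a difference in level per cell cannot be told apart. The part of these markers in the ISG values was not tested.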

How the data were processed

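RNA-Seq of rRNA-depleted total RNA from 10 libraries of EA.hy926 clones was analysed, with groups and replicate numbers taken from the labels. The authors deposited 1 table of FPKM values per RefSeq transcript on hg19. The submitters' processing notes name Trim Galore (version 0.4.4), STAR (version 2.5.4b), featureCounts and the GRCh37 build, and the paper's methods describe a test in edgeR, which needs counts and was not run here. How the table was made, and whether its counting used strand, is not given in the sources used here, so that overlapping genes and near-copies, such as those of *USP18* and the *IFITM* genes, may share reads.

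FPKM multiplied by length gave whole reads in 100% of the checked values (tolerance 0.1 reads), from which the depth was recovered. Intervals and limits from reads cover counting error only, since reads carry no molecular identifiers. The transcript row with the highest mean was kept for each symbol. Genes with 1 cpm or more in at least 2 libraries were fitted as log2(FPKM + 0.1) with limma (version 3.58.1, R version 4.3.3), as lmFit and eBayes with a trend, in 1 design of 4 groups (6 residual degrees of freedom). FDRs follow Benjamini and Hochberg over all 13333 genes, with thresholds of 0.05 for the FDR and 1.5 for the FC. Fold changes on this scale understate those of genes with low values. The p-values measure the spread between these clones and libraries only, and the controls of a set may be technical repeats. The members and gene lists were chosen with earlier results of these data known.

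Libraries were given in full for ISGs called in any of the 4 contrasts and, per role, for those with the highest mean and the largest log2 FC upon *VEGFA-LNC* deletion. *BST2*, *IFIT1*, *IFIT5*, *OASL*, *IFI27*, *GBP1* and *MX1* were added after their values were seen. For other lists the rule took genes called for either deletion and the gene with the highest mean. *IFNB1*, *IFNL1* and *IFNAR1* were added for their role, and *TYK2* and *TICAM1* after their values were seen. Deviations of clones with the same number in the 2 deletion sets correlated across genes (0.553, 0.409 and 0.219 for clones 1, 2 and 3). Positive values were not limited to these pairs. *VEGFA-LNC* clone 2 correlated with *VEGFC-LNC* clone 3 (0.263), and *VEGFA-LNC* clone 3 with *VEGFC-LNC* clone 2 (0.183). Differently numbered pairs with a clone 1 had values from −0.54 to −0.3. Deviations of same-numbered clones and controls did not correlate (−0.0550 to 0.0473). Python (version 3.11.15) with pandas (version 2.3.3) was used for the remaining steps.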

Additional observations from a re-analysis of the deposited data

How the results depend on the processing

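The 2 ISGs called upon *VEGFA-LNC* deletion came to 0 with control pairs averaged, in the fit to the set of 5 libraries alone and with a replicate block, and to between 0 and 36 when 1 library was left out. The 0 ISGs called upon *VEGFC-LNC* deletion came to between 0 and 8, and the 0 called in the difference of the deletions to between 0 and 9, when 1 library was left out. The highest values in each case, including 14 between the control sets, came without the first *VEGFA-LNC* clone. With all 4 controls as 1 group, where that difference is a direct comparison of the clones, 3 ISGs (*IFIT2*, *IFIT3* and *OASL*) were called. Between the control sets the 2 calls came to 0 with a pseudocount of 1 FPKM, without a filter, with control pairs averaged and with voom on recovered reads, to 1 with median-of-ratios scaling, and to between 0 and 14 when 1 library was left out. The median log2 FC of the ISGs stayed between 0.632 and 1.19 upon *VEGFA-LNC* deletion and between 0.236 and 0.656 upon *VEGFC-LNC* deletion when 1 library was left out. The cause of these changes was not tested.

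Of the single ISGs named, 12 values of the log2 FC changed sign, none of them of a called gene. Upon *VEGFA-LNC* deletion *SP100* went to −0.0682 with the replicate block, −0.141 with the longest transcript, and −0.0614 and −0.0546 without the second and the third clone (0.346 without the first), and *DDX60L* to −0.0243 without the second (0.325 without the first). Upon *VEGFC-LNC* deletion *SP100* went to −0.140 against all 4 controls, −0.0119 with the replicate block and −0.0255 without the third clone (0.279 without the first). *DDX60* went to −0.0639 with the block and −0.0419 without the third clone (0.448 without the first), *IFITM3* to −0.0440 without the third clone (0.892 without the first), and *ADAR* to 0.128 without the first (−0.355 without the third). With the replicate block 3 ISGs were called between the control sets, and apart from the *VEGFA-LNC* calls above it changed no other count of called ISGs. The ISGs with a log2 FC above 0 went from 52 to 48 upon *VEGFA-LNC* deletion and from 44 to 37 upon *VEGFC-LNC* deletion. Same-numbered clones and controls did not deviate together, and the labels do not say that a number marks a shared culture or day. Median-of-ratios scaling moved the median of all genes between the control sets from −0.108 to −0.00434, and the split of calls there from 389 higher and 1301 lower to 587 and 906. Depth limits mainly *MX1*, *MX2*, *RSAD2*, *XAF1*, *HERC5* and the interferon genes, which have few reads in some or all libraries.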
